A study of Rattus norvegicus with 15 samples.

Results

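The genes described here encode the proteins of the cytosolic ribosome, followed in rat knee articular cartilage from birth to old age. A gene was included when a probe set of the array carried a single gene symbol made of Rpl, Rps or Rplp and a number (with a, x or y allowed after it), or the symbol Rpsa. Where several probe sets carried the same symbol, the one with the highest mean over the 15 arrays stood for the gene. This gave 56 genes among the 18166 genes that the array names by a single symbol, 37 of the large (60S) subunit and 19 of the small (40S) subunit. Of 79 genes that make up the standard set of cytosolic ribosomal proteins, 55 were among the 56 and Rps4y2 was the other one. A further 13, among them Rps18, Rpl12 and Rplp1, were present only on probe sets that carry several symbols, 10 had no probe set named here, and Fau, whose product is a fusion that releases Rps30, was measured under a symbol outside the rule.

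The study took cartilage from the right knee of Sprague-Dawley rats at 5 stages labelled T0 (newborn), T1 (youth), T2 (adult), T3 (early-stage elderly) and T4 (latter-stage elderly). Each stage had 3 arrays that the labels call biological replicates. The animals had no treatment or genetic change, and their ages in weeks and their sex are not analysed here. The source name of T1 replicate 3 says adult while its title and stage say youth; it was kept at T1.

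Each ribosome subunit is built in the nucleolus from ribosomal RNA and a fixed set of proteins, which cells need in matched amounts. Most ribosomal protein mRNAs begin with a C followed by an unbroken stretch of C and T, the terminal oligopyrimidine (TOP) element, through which mTOR signalling and the RNA-binding protein Larp1 set how strongly they are translated. Cartilage cells in a growing joint secrete large amounts of collagen and proteoglycan, and mature articular cartilage holds few cells that divide little. Mammalian genomes also hold many processed copies of ribosomal protein genes that are nearly identical to the parent mRNA, so a probe set may collect signal from more than a single locus and each value below is uncertain in that respect.

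The start-site sequences of 8 genes to which the results below return are printed first, because the TOP element is a feature of most ribosomal protein mRNAs. Not every sequence shows a TOP element at the annotated start. Each runs 5′ to 3′ on the gene's strand from 30 bases before to 20 bases after the annotated transcript start in the RefSeq annotation of GRCr8. The last 20 bases therefore lie in the first exon, and the first 30 lie upstream of the gene. Capitals mark the longest run of C and T in the window.
Rpl34 (chr2:221962264-221962313, minus strand): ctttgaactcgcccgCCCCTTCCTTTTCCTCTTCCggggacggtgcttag
Rpl4 (chr8:73566447-73566496, plus strand): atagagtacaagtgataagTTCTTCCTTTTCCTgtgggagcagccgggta
Rpl3 (chr7:113507971-113508020, minus strand): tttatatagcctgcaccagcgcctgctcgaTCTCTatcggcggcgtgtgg
Rps15 (chr7:10068096-10068145, minus strand): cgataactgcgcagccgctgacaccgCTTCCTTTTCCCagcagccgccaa
Rplp0 (chr12:46718371-46718420, minus strand): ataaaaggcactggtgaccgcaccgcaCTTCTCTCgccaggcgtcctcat
Rps12 (chr1:23500045-23500094, plus strand): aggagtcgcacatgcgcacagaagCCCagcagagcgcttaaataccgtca
Rps6 (chr5:106420521-106420570, minus strand): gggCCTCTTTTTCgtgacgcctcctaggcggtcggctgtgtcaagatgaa
Rpl26 (chr10:54109662-54109711, plus strand): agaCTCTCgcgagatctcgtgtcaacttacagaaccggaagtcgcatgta

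The run was 20 bases long in Rpl34, 14 in Rpl4 and 12 in Rps15, and in these 3 genes it lay across the annotated start. It was 8 bases in Rplp0, where it also lay across the start, and 5 in Rpl3, where it began at the first transcribed base. In Rps12 the longest run was 3 bases, and in Rps6 and Rpl26, with 10 and 5 bases, it lay near the upstream end of the window. RefSeq gave a window for 46 of the 56 genes. A run of at least 8 C or T bases was present in 35 of the 46 (76.1%), against 19.9% of 27457 rat promoters in windows of the same length. The median longest run was 10 bases, against 5 over all promoters, and the first transcribed base was C in 24 of 46 (52.2%), against 24.2%. Short words of such runs were searched on both strands, and the words can overlap one another. On the gene's strand CTTTC was present in 45.7% of the 46 windows against 6.58% of all promoters, and CTCTT in 41.3% against 7.16%. The word CTTCC was present in 41.3% against 10.6%, and the word CTTTT in 21.7% against 6.02%. At least 1 of the 4 words stood on the gene's strand in 34 of 46 windows (73.9%), against 24.6% of all promoters, and on the other strand in 8 of 46 (17.4%), against 25%. These are counts of letters at annotated starts, which may lie some bases from the start used in cartilage.

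The measurements are log2 signals as deposited, so a difference of 1 is a doubling and a stage mean is a mean of log2 values with its SD over 3 arrays. Differences were tested with limma across all 36685 probe sets and called at a Benjamini-Hochberg adjusted p under 0.05. The 56 genes fell into a larger set with a mean signal over all arrays between 7.09 and 12.6 and a smaller set between 4.41 and 6.62, near the median of a whole array. The 43 genes above 7 (12 of the small and 31 of the large subunit) are called clear below and the other 13 low, a line drawn after the values had been seen. The low genes were Rpl5, Rpl15, Rpl26, Rpl27a, Rpl28, Rpl37a, Rps4y2, Rps6, Rps9, Rps12, Rps16, Rps24 and Rps27. The line sorts probe sets by signal and does not rank the genes by RNA amount, since probe sets differ in how brightly they report.

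The arrays report whole ground cartilage, and the samples differed by stage in more than these genes. The 16 cartilage matrix genes had a median signal of 9.97 ± 0.10 at T0 and 6.29 ± 0.31 at T4, and Col2a1, the main collagen of cartilage, had a mean of 12.36 at T0, 11.91 at T2 and 8.0 at T4. Erythroid markers (6 genes) had a median of 5.46 at T0 and 10.96 at T1, and skeletal muscle markers (9 genes) one of 11.13 at T0 and 4.91 at T2. The spread of all signals within an array had a mean SD of 2.02 in each of the first 3 stages, 1.89 in T3 arrays and 1.62 in T4 arrays. T4 replicate 1 stood apart from the other T4 arrays, so the counts, medians and main differences at T4 are also given without it.

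As deposited, the clear ribosomal protein genes held a nearly constant level over the first 4 stages and were lower at T4. Their median signal was 10.45 ± 0.05 in newborns (T0), 10.33 ± 0.06 in youth (T1), 10.22 ± 0.05 in adults (T2) and 10.25 ± 0.06 in early-stage elderly animals (T3). In latter-stage elderly animals (T4) it was 8.51 ± 1.51 (SD, n = 3 arrays at each stage). The 3 T4 arrays lay between 6.77 and 9.40, all under every array of the other stages. The replicates of a clear gene were close in the early stages, with a median SD of 0.0649 in T0 arrays, 0.0796 in T1 arrays and 0.108 in T2 arrays, and further apart in the T3 (0.238) and T4 (1.59) arrays. The T4 spread came largely from replicate 1, since the gap between replicates 2 and 3 had a median of 0.21 and a maximum of 0.83 over the clear genes. The median of the 13 low genes lay between 4.86 and 4.98 in the first 3 stages and was 5.39 in T3 arrays and 5.46 in T4 arrays.

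**Figure D1:**
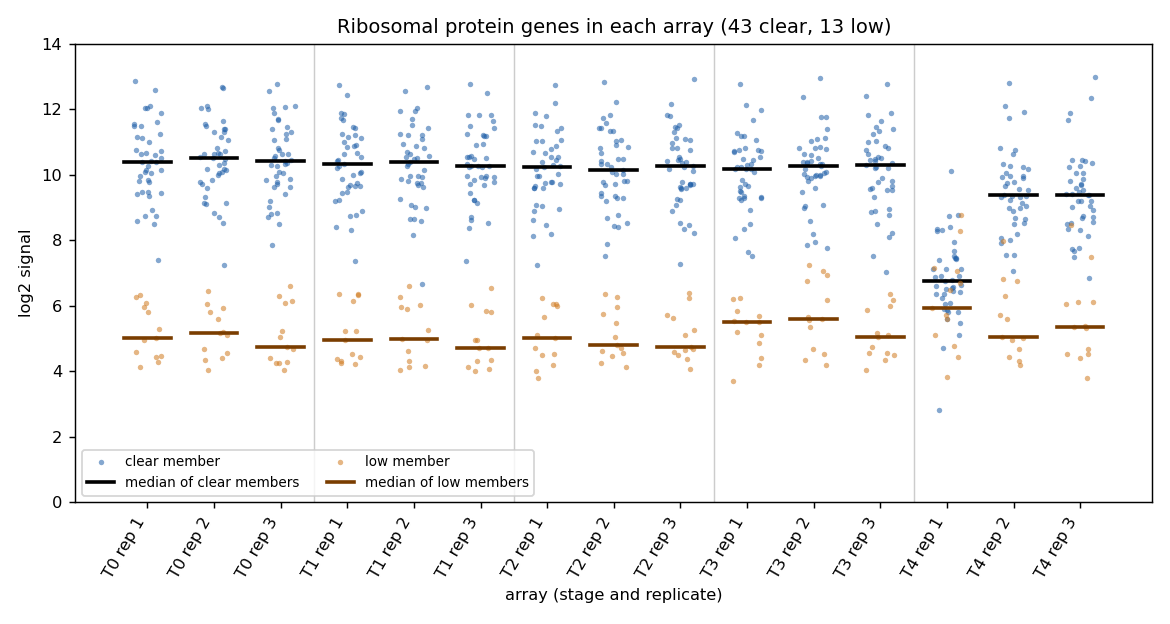
Log2 signal of the 56 ribosomal protein genes (points) in each of the 15 arrays, with the clear genes in blue, the low genes in orange and the median of each set as a bar. The clear median has a stage mean between 10.22 and 10.45 from T0 to T3 and drops to 6.77 in the lowest and 9.40 in the highest T4 array, while the low median does not drop.

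In the latter-stage elderly samples, 29 of the 56 genes fell against the adult samples, 6 rose and 21 were not called. Over all probe sets 29.4% were called lower and 27.2% higher, and over named genes 38.4% and 25%. The median difference was -1.26 over the 56 genes, against 0.07 over all probe sets. Every one of the 43 clear genes had a lower mean at T4 than at T2, with a median difference of -1.47; 28 of them fell and none rose. Without T4 replicate 1, 37 of the 43 were lower, with a median of -0.63, and Rpl23, Rpl41, Rps14, Rps20, Rps29 and Rps3a lay between 0.01 and 0.50 above T2, none of them called. In 31 of the 43 (72.1%) the 3 T4 arrays lay below all 3 T2 arrays without overlap, against 31.3% of all probe sets. The low genes went the other way, with 6 called higher, 1 called lower and a median of 0.88. Fitting the T2 and T4 arrays alone called 10 of the 56 lower and 5 higher, against 24.5% and 19.8% of all probe sets. In whole tissue, fewer cells that express these genes and less of their RNA per cell cannot be told apart.

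Large-subunit genes showed the biggest falls. Rpl34, a 60S protein, had signals of 12.05, 12.10 and 12.08 at T0 and of 11.89, 11.43 and 11.84 at T2. Its T3 arrays gave 10.46, 10.80 and 11.46, and its T4 arrays 6.36, 9.0 and 9.21. The T4 arrays lay under every earlier array, with replicate 1 far below the other T4 arrays. The T4 minus T2 difference was -3.53 (SE 0.54, adjusted p = 0.000164), an 11.5-fold lower signal; without T4 replicate 1 it was -2.61 (SE 0.25, adjusted p = 2.5e-05), or 6.12-fold. Rpl4, whose long loop lines the tunnel through which the new protein leaves the ribosome, gave 7.14, 9.24 and 9.39 at T4 against 11.80, 11.43 and 11.79 at T2. It fell by 3.08 (SE 0.45, adjusted p = 0.000116), or 8.48-fold, and without T4 replicate 1 by 2.36, or 5.12-fold. Rpl3, which reaches toward the site of peptide bond formation, gave 6.08, 9.04 and 8.5 at T4 against 10.55, 10.49 and 10.43 at T2. Its difference was -2.62 (SE 0.52, adjusted p = 0.000853), or -1.72 without T4 replicate 1, and its T4 arrays did not overlap those of any other stage. Rpl29 (-2.56, SE 0.44), Rpl6 (-2.37, SE 0.50) and Rpl8 (-2.10, SE 0.50), also of the 60S subunit, were also lowest in T4 replicate 1, without which their differences were -1.83, -1.54 and -1.22. These 6 genes were the ones called lower under all 24 alternative settings.

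Among the clear large-subunit genes 22 of 31 fell, with a median of -1.54, and among the clear small-subunit genes 6 of 12 fell, with a median of -1.21. Over all probe sets 29.4% were called lower, and over named genes 38.4%. The difference between the subunits was not tested. Of the small-subunit genes, Rps13 gave 5.87, 9.55 and 9.49 at T4 against 10.30, 10.50 and 10.47 at T2, a difference of -2.12 that was -0.90 without T4 replicate 1. Rps3, which sits at the mRNA entry channel, gave 4.72, 8.0 and 7.77 against 8.89, 8.78 and 8.90 and fell by 2.03 (SE 0.59, adjusted p = 0.00984), or by 0.97 without T4 replicate 1. Rpsa, which is also known as the laminin receptor precursor, gave 8.35, 10.83 and 10.47 against 11.50, 11.58 and 11.43. Its difference was -1.62 (SE 0.45, adjusted p = 0.00751) and -0.85 without T4 replicate 1, and in none of these 3 genes did T4 and T2 arrays overlap. Rpl11, which joins Rpl5 and 5S rRNA in a particle that can bind Mdm2 and so stabilise p53, gave 6.36, 7.93 and 7.73 at T4 against 8.46, 8.43 and 8.52. It fell by 1.13 (SE 0.31, adjusted p = 0.00649), and by 0.64 without T4 replicate 1. Rps13, Rps3, Rpsa and Rpl11 were called lower with and without that array. After quantile normalization Rpsa stayed called (-0.73, adjusted p = 0.0363), while Rps13 (-1.52), Rps3 (-1.45) and Rpl11 (-0.24) were not. Rps19, the gene most often mutated in Diamond-Blackfan anaemia, gave 6.90, 9.38 and 9.02 at T4 against 9.61, 9.31 and 9.60 at T2. With overlapping arrays its difference of -1.07 (SE 0.46) had an adjusted p of 0.0613 and was not called; without T4 replicate 1 it was -0.31.

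The acidic stalk, which recruits elongation factors to the large subunit, is represented by Rplp0 and Rplp2. Rplp0, often used as a reference gene in quantitative PCR, gave 8.75, 8.65 and 8.76 at T4 and 8.96, 8.68 and 9.09 at T2. The groups overlapped, with a difference of -0.19 (SE 0.18, adjusted p = 0.379), and its T4 range of 0.11 was the smallest of the 56 genes. Under quantile normalization the sign of this difference turned (1.07, adjusted p = 0.00954). Rplp2 gave 7.47, 9.76 and 9.73 at T4 and 9.78, 10.03 and 9.80 at T2, a difference of -0.88 (SE 0.43, adjusted p = 0.097) that was not called and was -0.12 without T4 replicate 1.

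T4 replicate 1 carried much larger differences than the other T4 arrays. Against the T2 mean, the median over the clear genes was -3.64 in replicate 1, 12.4-fold lower, and -0.65 and -0.66 in replicates 2 and 3. Signals below the lowest of the 9 arrays of T0 to T2 were found for 41 of 43 clear genes in replicate 1, where 31.3% of all probe sets were that low. The count was 31 of 43 in replicate 2, against 28.1% of all probe sets, and 34 of 43 in replicate 3, against 32%. In replicate 1, 29 of the 43 were lower by more than 3, a size that none reached in the other T4 arrays. Rpl14 was the only clear gene above its T2 mean in replicate 1 (8.77, 7.55 and 8.36 at T4). In both other arrays a few small and large subunit genes lay above their T2 mean, 6 in replicate 2 and 5 in replicate 3, with Rpl41, Rps20 and Rps3a in both sets.

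The widest T4 ranges belonged to genes that were low in replicate 1 alone. Rps3a gave 2.82, 7.55 and 7.49 at T4, a range of 4.73, against 7.26, 7.51 and 7.28 at T2. Rpl41, the smallest ribosomal protein, gave 7.43, 11.92 and 11.88 against 11.52, 11.83 and 11.53. Rpl23 gave 8.40, 12.10 and 12.35 against 12.20, 12.23 and 12.18. In all 3 genes the T4 arrays overlapped those of T2 and no difference was called (adjusted p = 0.184 for Rps3a, 0.214 for Rpl41 and 0.138 for Rpl23). Without T4 replicate 1, the median difference of the 56 genes was -0.55. The fit then called 27 of the 56 lower and 5 higher, where 28.2% and 21.2% of all probe sets were called, and the 26 clear genes among them were also called with all arrays.

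**Figure D2:**
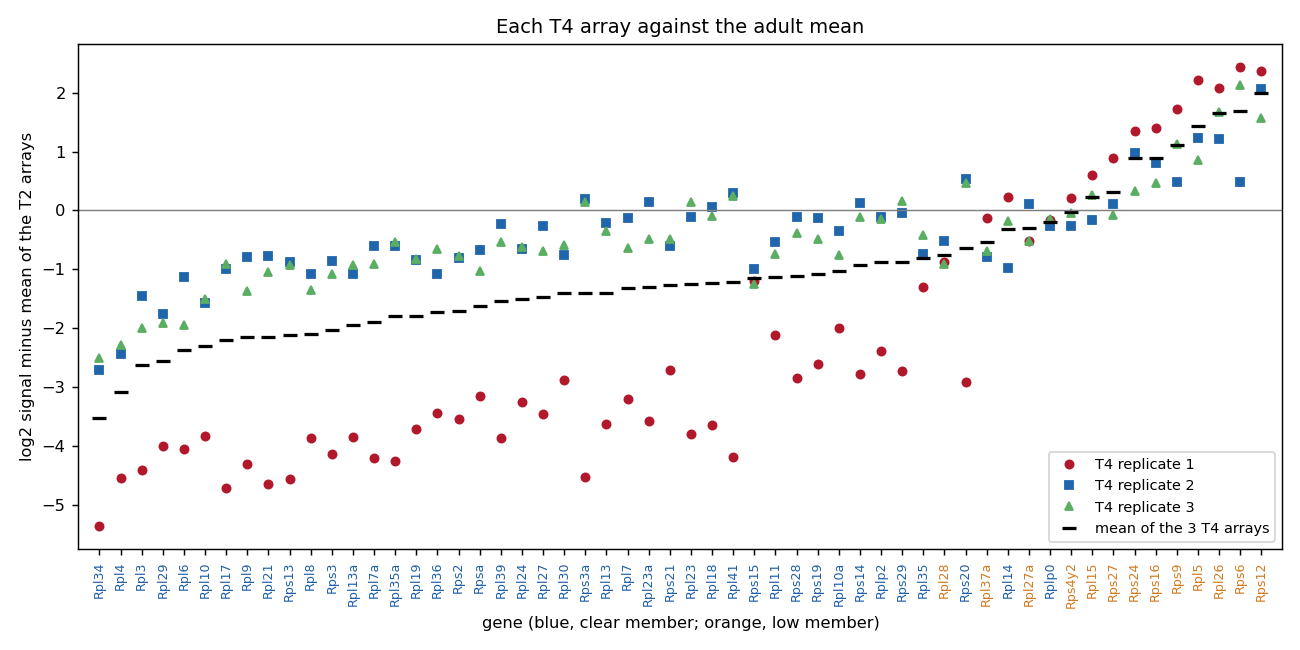
Difference of each T4 array from the T2 mean (log2, vertical axis) for each of the 56 genes, sorted by the mean of the 3 differences (black dash). Replicate 1 lies far below replicates 2 and 3 for most genes. The genes at the right end, with a mean above 0, are all low ones. Of the 13 low genes, 10, 9 and 8 lie above 0 in replicates 1, 2 and 3.

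Rps15, a protein of the 40S head, kept close replicates at T4 and was the only gene of the 56 whose decline was called both early and late. Newborn arrays gave 8.75, 8.71 and 8.5, youth arrays 8.32, 8.58 and 8.52, and adult arrays 8.14, 7.89 and 8.22. The early-stage elderly arrays gave 7.54, 7.77 and 7.53, and the latter-stage elderly ones 6.88, 7.08 and 6.84. The T2, T3 and T4 arrays did not overlap one another, and the SD was between 0.13 and 0.17 at every stage. It fell by 0.57 from T0 to T2 (SE 0.17, adjusted p = 0.0433) and by 1.15 from T2 to T4 (SE 0.17, adjusted p = 0.000149). The first of these calls held under 11 of 25 alternatives, and under quantile normalization the second difference was -0.19 and no longer called.

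Of the 13 low genes, Rps12, Rps6, Rpl26, Rpl5, Rps16 and Rps24 rose from T2 to T4. Rps12 gave 6.07, 5.97 and 5.72 at T2 and 8.29, 7.98 and 7.49 at T4, a 4-fold higher signal (2.00, SE 0.31, adjusted p = 0.000167). Rps6, the substrate of S6 kinase, gave 6.25, 6.36 and 6.39 at T2 and 8.77, 6.81 and 8.47 at T4. It rose by 1.68 (SE 0.40, adjusted p = 0.00313). Rpl26, which lies near the exit of the peptide tunnel, gave 4.21, 4.62 and 4.37 at T2 and 6.48, 5.61 and 6.07 at T4. Its rise was 1.65 (SE 0.23, adjusted p = 0.000102), and all its T4 arrays lay above its other 12 arrays. Rpl5, the partner of Rpl11, gave 4.52, 4.27 and 4.68 at T2 and 6.71, 5.72 and 5.34 at T4, and rose by 1.44 (SE 0.36, adjusted p = 0.00377). At T3, Rpl5 already gave 5.70, 5.66 and 4.55, which overlapped the T4 arrays. Rps16 (0.89, SE 0.26) and Rps24 (0.88, SE 0.29) had smaller rises, and Rps16 had overlapping arrays. Rps12, Rps6, Rpl26 and Rpl5 were called higher under every alternative that tested them, which for Rpl26 and Rpl5 excludes the low-signal filter. Rpl28 was the low gene that fell (-0.76, SE 0.27), and Rps4y2 (-0.03, SE 0.19) and Rpl15 (0.23, SE 0.40) were not called, with overlapping arrays. Without T4 replicate 1 neither the rise of Rps24 (0.65) nor the fall of Rpl28 (-0.71) was called.

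Higher signals at T4 were also common in another list of genes with low signal. The 1184 olfactory receptor genes, whose products detect odours in the nose, had a median T4 minus T2 difference of 0.85, with 652 called higher and 14 lower. The narrower spread of signals at T4 moved with this pattern, and its part in the rise of the low ribosomal protein genes was not tested. Of the genes with a start-site window, a run of at least 8 C or T bases was present in 21 of 25 that fell (84%), 3 of 6 that rose and 11 of 15 not called. No test was made on these counts.

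**Figure D3:**
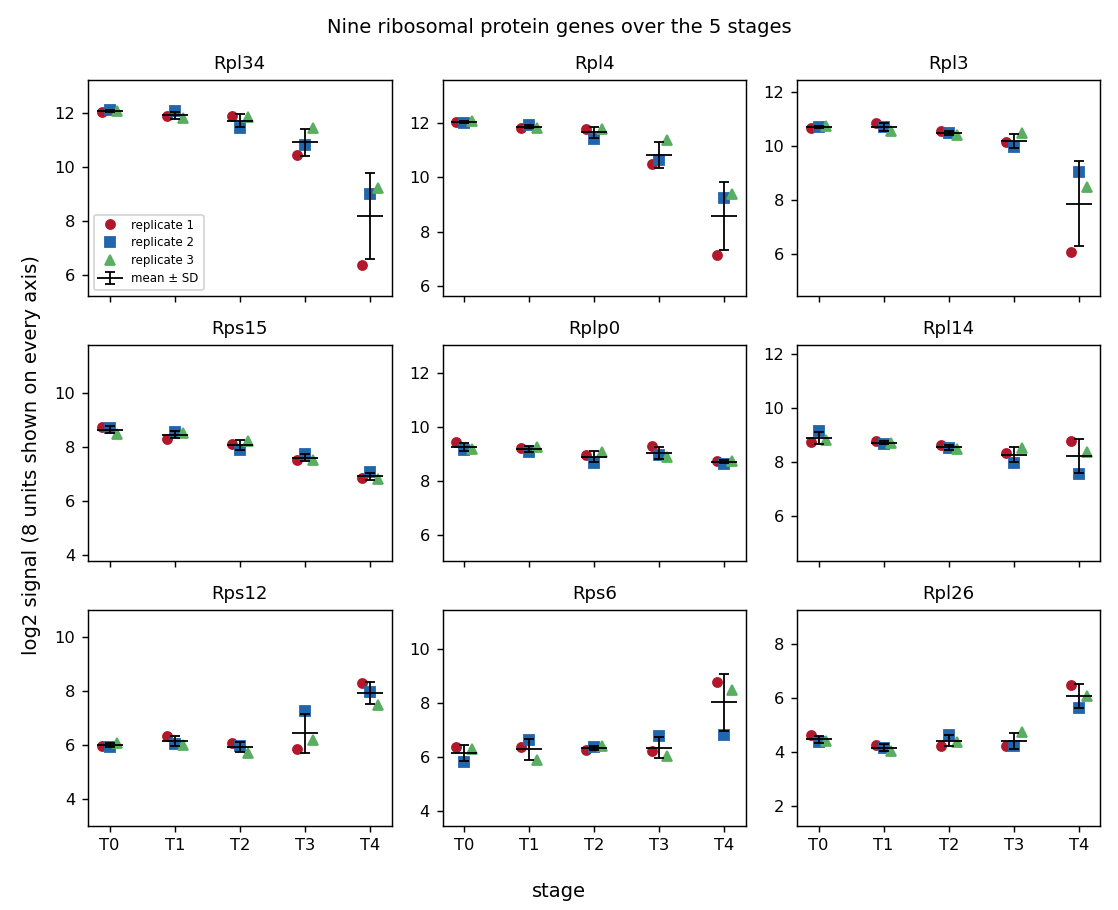
Log2 signal by stage for Rpl34, Rpl4, Rpl3, Rps15, Rplp0, Rpl14, Rps12, Rps6 and Rpl26, with a point for each replicate and the mean ± SD (n = 3); every axis spans the same number of log2 units. Rpl34, Rpl4 and Rpl3 drop at T4 with replicate 1 lowest, Rps15 steps down with tight replicates, Rplp0 varies little, and Rps12, Rps6 and Rpl26 are higher at T4.

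How far the clear genes moved depended on how the arrays were scaled. The median T4 minus T2 difference of the 43 clear genes was -1.47 as deposited, -1.66 after median centring, -0.92 after centring and equal SD, and -0.76 after quantile normalization. The median of all probe sets was 0.07, -0.12, -0.26 and 0.02 under the same scalings. Relative to it, the clear genes were at -1.54 as deposited and after centring, -0.66 with equal SD and -0.78 after quantile normalization. The clear genes called lower numbered 28 as deposited, 31 after centring (33.4% of all probe sets), 9 with equal SD and 8 after quantile normalization, and Rplp0 was the 1 called higher, in the last of these. Among all 56 genes the calls were 10 lower and 7 higher after quantile normalization, where 23.4% and 23.7% of all probe sets were called, and 11 lower and 6 higher with equal SD (35.4% and 19.3%).

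The 3 T4 arrays parted under these scalings. In replicate 1 the clear median against the T2 mean stayed between -3.90 and -2.76 under all 4 scalings. In replicate 2 it was -0.65 as deposited, -0.80 after centring, and -0.05 both with equal SD and after quantile normalization. In replicate 3 it was -0.66, -0.80, 0.04 and 0.13 in that order. A drop of the clear genes in replicates 2 and 3 was thus present only in the scalings that keep each array's own spread, and replicate 1 kept it under all of them.

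**Figure D4:**
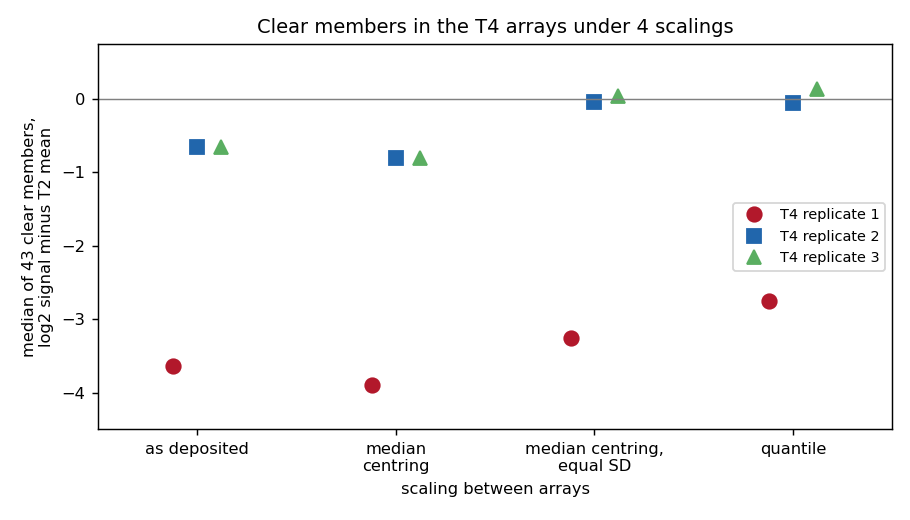
Median over the 43 clear genes of the log2 difference from the T2 mean, for each T4 array, as deposited and under 3 other scalings. Replicate 1 stays between -3.90 and -2.76, and replicates 2 and 3 move from near -0.65 to near 0 once the arrays are given the same spread.

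Against the early-stage elderly samples, 33 of the 56 genes fell at T4 and 4 rose, where 25.8% of all probe sets were called lower and 16.5% higher. The median difference was -1.43, against -0.08 over all probe sets, and 31 of the 43 clear genes fell. After quantile normalization 5 of the 56 fell and 3 rose (17.6% and 18.5% of all probe sets), and with equal SD 14 fell and 4 rose (29.1% and 15.9%). The largest falls were those of Rpl34 (-2.71, SE 0.54), Rps13 (-2.36, SE 0.67) and Rpl3 (-2.34, SE 0.52). Rps6 (1.68, SE 0.40), Rpl26 (1.67, SE 0.23), Rps12 (1.49, SE 0.31) and Rps16 (0.72, SE 0.26) rose. A fit of the T3 and T4 arrays alone called Rpl26 higher and no other gene of the 56, so none of the 33 falls was called. Over all probe sets that fit called 3.56% higher and 3.34% lower. Without T4 replicate 1, 27 genes fell and 3 rose, against 21.2% and 10.3% of all probe sets, and the median was -0.61. The differences of Rpl34, Rps13 and Rpl3 were then -1.80, -1.14 and -1.44, and Rps16 (0.47) was not called.

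Between newborn and adult cartilage the clear genes shifted down by a small amount. Of the 43, 39 had a lower mean at T2 than at T0, with a median difference of -0.27, and over all 56 genes the median was -0.23, against -0.01 over all probe sets. Rps15 was the 1 gene called; 6.19% of all probe sets were called lower and 6.51% higher. The arrays of the adult stage lay under those of the newborn without overlap in 32 of the 56 genes (57.1%), 31 of them clear, against 18.5% of all probe sets. Other clear genes had differences of about the size of that of Rps15 without being called. Rps19 gave 10.06, 10.16 and 10.05 at T0 and 9.61, 9.31 and 9.60 at T2, a difference of -0.58 (SE 0.46, adjusted p = 0.607). Rpl36 gave 10.62, 10.64 and 10.64 at T0 and 10.19, 9.80 and 10.26 at T2, and Rpl10a 10.16, 10.19 and 10.29 against 9.74, 9.71 and 9.59. Rpsa gave 12.11, 12.06 and 11.89 at T0 against 11.50, 11.58 and 11.43. No T2 array of these 4 genes reached a T0 array.

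The shared spread of that fit includes the wide T4 arrays. Without the 3 T4 arrays, 4 of the 56 genes were called lower at T2 than at T0 (Rpl10a, Rpl36, Rpl9 and Rps15), against 8.12% of all probe sets. With the T0 and T2 arrays alone 6 were called, Rps19 and Rpsa being the others, against 9.35%. Rpl30 stood on the other side, with 9.43, 10.51 and 10.46 at T0 and 10.68, 11.05 and 10.77 at T2, a difference of 0.70 (SE 0.49) that was not called and in which T0 replicate 1 was the lowest array. The median of the 56 genes stayed below 0 under every scaling and was -0.12 after quantile normalization. Markers of other tissues moved between the same stages: 6 of 6 erythroid, 11 of 12 myeloid and 5 of 5 B cell genes rose from T0 to T2, with medians of 4.97, 5.30 and 3.06, and 9 of 9 skeletal muscle genes fell (median -6.47). Their part in the shift of the ribosomal protein genes was not tested.

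**Figure D5:**
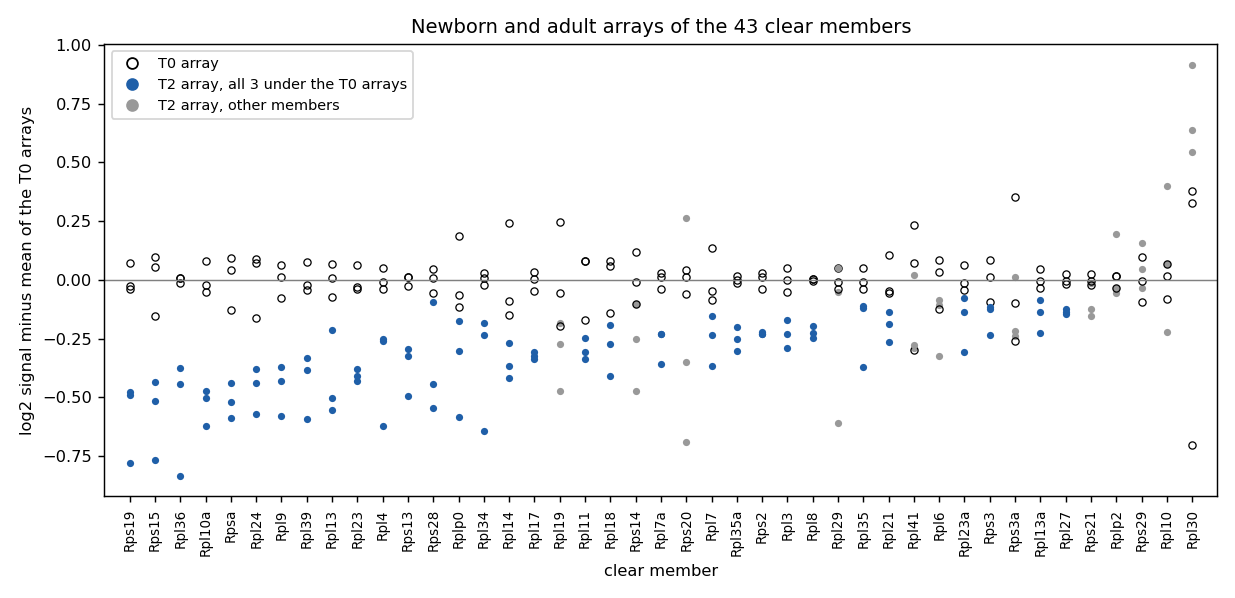
Log2 signal of each T0 and T2 array minus the T0 mean for the 43 clear genes, drawn in blue where all 3 T2 arrays lie under all 3 T0 arrays (31 genes). Most T2 points lie within a log2 unit below 0, and Rpl30 is the gene with its T2 points furthest above 0.

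The steps from T0 to T1 and from T1 to T2 each held part of this shift. From T0 to T1 limma called none of the 56 genes, where 3.54% of all probe sets were called lower and 4.01% higher. At an unadjusted p under 0.05 limma had 1 of the 56, against 6024 of all 36685 probe sets. With array weights, an estimate that stopped short of its convergence tolerance, it called Rpl27a lower, against 9.61% of all probe sets lower and 9.07% higher. The median was -0.13, and 21 of the 56 genes lay lower at T1 without overlap (37.5%), against 17.4% of all probe sets. After quantile normalization the median was near 0. From T1 to T2 limma again called none of the 56, against 0.403% lower and 0.488% higher over all probe sets. With array weights it called 0, against 3% lower and 3.49% higher. At an unadjusted p under 0.05 limma had 1 of the 56, against 3125 of all 36685 probe sets. The median was -0.11, and 22 of 56 (39.3%) lay lower at T2 without overlap, against 10.4%.

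From adult to early-stage elderly, limma called none of the 56 genes, where 0.112% of all probe sets were called lower and 0.0382% higher. At an unadjusted p under 0.05 limma had 2 of the 56, against 7264 of all 36685 probe sets. With array weights it called 5, of which Rpl29, Rpl34, Rpl4 and Rps15 were lower and Rpl5 higher, against 12.4% and 16.1% of all probe sets. Those weights rest T3 mostly on replicate 1 (2.49, against 0.29 and 0.33) and T4 mostly on replicate 3 (4.59, against 0.10 and 0.33). The median was 0.07 over the 56 genes and 0.01 over the clear genes, 0.21 for the clear small-subunit genes and -0.02 for the clear large-subunit genes. For the 56 it was -0.06 after median centring, 0.11 after quantile normalization and 0.19 with equal SD. With equal SD the clear median was 0.20, with 30 genes higher and 13 lower, against -0.06 over all probe sets. Rpl4 and Rpl34 already stood lower at T3, with differences of -0.83 (SE 0.45) and -0.81 (SE 0.54). The T3 arrays of Rpl4 (10.49, 10.63 and 11.40) all lay under its T2 arrays, and the highest T3 array of Rpl34 just overlapped its T2 arrays. Rpl4 was called lower without the T4 arrays, where 2.54% of all probe sets were. Over all stages together, the moderated F test called 32 of the 56 genes, 25 clear and 7 low, against 60.1% of all probe sets. Without the T4 arrays it called 8, against 25.5%. The highest stage mean was at T0 for 28 of the 43 clear genes and at T4 for none, and the lowest was at T4 for all 43.

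For 18 of the 56 genes the array held further probe sets, 30 in all. From T3 to T4 all 30 had the sign of the chosen probe set, and from T2 to T4 29 did. In the latter comparison 22 of the 30 were called. The chosen probe set was called too for 11 of them, none in the opposite direction. The gap from the chosen probe set then had a median of 0.42 and a maximum of 2.21. Rps29 differed among its own probe sets. Its chosen probe set gave 10.11, 12.80 and 12.99 at T4, while another gave 7.49, 10.90 and 10.94 and the last 9.28, 9.17 and 9.18. Rpl10 differed at T3, where its chosen probe set gave 8.94, 9.94 and 8.77 and the other gave 10.82, 10.30 and 9.48. The T2 to T4 fall of Rpl10 was lost when the probe sets of a gene were averaged.

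Relatives and partners of the ribosome outside the rule were read on the same arrays. Of 5 such genes 3 fell from T2 to T4. Rack1, a scaffold protein bound to the 40S head, had a difference of -2.19, with T4 replicate 1 again furthest down. Rpl7l1 had one of -2.31 and Rpl3l, the striated-muscle relative of Rpl3, one of -0.79. Fau (-0.66) and Rpl22l1 (-0.11) were not called. Rpl3l also rose from T0 to T1 (1.39) and from T0 to T2 (1.24). How the differences of these genes change under the other scalings was not tested.

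Other genes of protein synthesis were mostly lower at T4 as well, to be read against the 29.4% of all probe sets and 38.4% of named genes that were called lower from T2 to T4. Of 30 initiation factor genes 28 fell and none rose from T2 to T4, with a median of -1.75, and of 13 elongation and termination factor genes 9 fell and 1 rose (median -1.44). Among them Eif2a, which can deliver initiator tRNA, fell by 1.71 (SE 0.22). Of 50 ribosome biogenesis genes 42 fell (median -1.27), among them Nmd3, the export adaptor of the 60S subunit (-1.77, SE 0.19). RNA polymerase I genes fell in 8 of 12 cases (median -0.65), among them Rrn3, the factor that brings the polymerase to ribosomal DNA (-1.88, SE 0.23). Genes of mTOR, S6 kinase and Myc fell in 13 of 15 cases and rose in 1 (median -0.91), and Rps6kb1, the S6 kinase itself, fell by 1.64 (SE 0.25). TOP mRNAs that encode no ribosomal protein fell in 9 of 13 cases (median -1.64). This list shares members with the initiation and the elongation and termination lists, so these lists are not separate. Without T4 replicate 1, 28 initiation, 8 elongation and termination, 39 biogenesis, 7 polymerase I, 13 mTOR and Myc and 8 TOP genes fell. The medians were then -1.16, -0.68, -1.15, -0.67, -0.93 and -0.90 in that order. All these list results rest on the signals as deposited. Whether the falls remain once the arrays are given the same spread was not tested.

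Lists outside cytosolic translation also had many members called lower, beside the same 29.4% and 38.4% lower and the 27.2% of all probe sets and 25% of named genes called higher. From T2 to T4 the calls were 12 of 13 proteasome core genes lower (median -1.72), 47 of 71 mitochondrial ribosomal protein genes lower and 2 higher (median -0.80), and 44 of 78 respiratory chain genes lower and 8 higher (median -0.99). Of 16 cartilage matrix genes 13 fell (median -2.95). The markers of blood and marrow cells were lower too, with 4 of 6 erythroid genes (median -1.99), 8 of 12 myeloid genes (median -2.08) and 5 of 5 B cell genes (median -1.93) called, and 3 of 9 skeletal muscle genes were called higher (median 0.95). Without T4 replicate 1 the calls were 12 proteasome genes lower (median -1.12), 44 mitochondrial ribosomal protein genes lower and 2 higher (median -0.66), 39 respiratory chain genes lower and 6 higher (median -0.68) and 13 cartilage matrix genes lower (median -2.68). The blood and marrow lists then had medians of -1.01 (erythroid), -1.09 (myeloid) and -1.88 (B cell), and 5 of 9 skeletal muscle genes were higher (median 1.26). The part of these cell types in the fall of the ribosomal protein genes was not tested. These lists too were read only as deposited, and their differences under the other scalings were not tested.

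The lists differed in how they divided over the T4 arrays. The non-ribosomal TOP genes had medians against the T2 mean of -3.62 in replicate 1, -0.93 in replicate 2 and -0.88 in replicate 3. Several other lists were also far lower in replicate 1. Erythroid markers were at -4.27, -0.81 and -1.21, myeloid markers at -3.68, -1.47 and -0.71, proteasome core genes at -3.14, -1.08 and -1.10, and elongation and termination factors at -2.92, -0.67 and -0.78. Initiation factors were at -2.61, -0.99 and -1.24, ribosome biogenesis genes at -1.51, -1.04 and -1.09, and mitochondrial ribosomal protein genes at -0.99, -0.56 and -0.76. Cartilage matrix genes were low in all 3 arrays, at -3.11, -2.37 and -3.14. These are descriptions of 3 arrays as deposited with no test, and lists of lower signal have less room to fall. The lists were not read under the other scalings.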

How the data were processed

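Total RNA from knee cartilage was hybridised to 15 single-colour whole-transcript arrays, 3 at each of 5 stages. Per the submitters' processing notes the values were made with RMA, and the authors deposited them as log2 signals for 36685 probe sets. The software version and genome build were not given in the sources used here. The deposited arrays did not share a single distribution (SD 1.48 in T4 replicate 1, against 2.00 to 2.05 in T0 to T2), so how far RMA equalised them is unknown; the number of arrays limits the precision.

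Probe sets were named through the platform annotation (18511 with 1 symbol, 575 with several, 17599 with none), and 54 of the 56 genes matched RefSeq by Entrez ID. limma 3.58.1 in R 4.3.3 was fitted over all arrays with a mean per stage (lmFit, eBayes) and Benjamini-Hochberg over all probe sets. The fit was also tried on simulated data that gave every stage the spread of the T0 to T2 arrays. Such data do not represent the wider T4 arrays. The stages came from the labels. The replicate numbers did not pair the samples. Members and lists were chosen with earlier results of these data known. Genes were named by rule: per comparison the top 3 calls by size in each direction, those with the largest and smallest T2 to T4 difference and T4 range, a preset list (Rplp0, Rplp2, Rpsa, Rpl3, Rpl5, Rpl11, Rps3, Rps6, Rps19) and, of other lists, the gene with the smallest p. Rpl29, Rpl6, Rpl8, Rpl14, Rpl36, Rpl10a, Rpl9, Rpl30, Rps20, Rps14, Rps29, Rpl10, Rpl27a and Col2a1 were named after their values were seen. Alternatives were 3 scalings, array weights (which did not converge fully), subsets of arrays, a low-signal filter, the replicate block, T1 replicate 3 moved to T2, and probe set means.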

Additional observations from a re-analysis of the deposited data

How the results depend on the processing

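Most counts and medians kept their direction and size, 282 of 320 values over all alternatives. Some of these values could not change, so this share overstates how stable the results were. A median difference between stages stays the same when only arrays of other stages are left out. The T0 to T2 median of the 56 genes, for example, was -0.23 with all arrays and without T4 replicate 1. The numbers of the 56 genes called changed with the scaling: after quantile normalization 17 from T2 to T4, 8 from T3 to T4, 0 from T0 to T2 and 15 by the F test, and with equal SD 17, 18, 0 and 14. With only the compared arrays, 10 were lower and 5 higher from T2 to T4, against 24.5% and 19.8% of all probe sets. From T3 to T4 0 were lower and 1 higher, against 3.34% and 3.56%. From T0 to T2 6 were lower, against 9.35%. With array weights 1 was lower from T0 to T1, against 9.61% of all probe sets, and 5 were lower from T0 to T2, for which no share is given. From T2 to T3 4 were lower and 1 higher, against 12.4% and 16.1%. A fit without the T4 arrays was added after seeing the data for the pairwise comparisons. It called 4 lower from T0 to T2 and 1 from T2 to T3, against 8.12% and 2.54% of all probe sets. The F test without the T4 arrays called 8, against 25.5%. With T1 replicate 3 at T2, 0 were called from T0 to T2. The median became 0.0099 from T0 to T1, -0.16 from T1 to T2 and -0.12 from T0 to T2 after quantile normalization. From T2 to T3 it was -0.059 after centring and 0.19 with equal SD. Rplp0 turned to 1.07 from T2 to T4 after quantile normalization. The cause of these changes was not tested.

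Leaving out a single array gave 29 to 46 called from T2 to T4 with medians from -1.85 to -0.55, 22 to 44 from T3 to T4 with medians from -1.93 to -0.61, 0 to 3 from T0 to T2, 0 to 1 from T2 to T3 with medians from -0.00195 to 0.09, and 26 to 39 by the F test. The medians nearest 0 at T4 were those without T4 replicate 1, and the fewest T3 to T4 calls were those without T3 replicate 3 (22).

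Same-numbered replicates had correlations of deviations from -0.19 to 0.12, so the numbers do not pair the samples. With the replicate block the calls were 35 from T2 to T4, 36 from T3 to T4, 0 from T0 to T2 and 32 by the F test. No share of all probe sets is given for the block, for T1 replicate 3 at T2 or for most single arrays left out. Those counts are therefore not set against the whole array. Genes near the median array signal, where 13 of the 56 lie, have less room to show a fall than brighter genes. Signals do go lower, with an olfactory receptor median of 2.92 at T2, and how far this limited the 13 genes was not tested.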
